A study of Mus musculus with 17 samples.

Results

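The 26 genes described here encode enzymes that turn acetoacetyl-CoA into cholesterol, the SREBP regulators of those enzymes, and proteins that move sterols or control their uptake. They were taken by name as parts of the pathway, with earlier results of these data known. All 26 were among the 55385 genes of the tables, and all 26 passed the filter on low counts that left 18983 genes for testing. Polyadenylated RNA was sequenced from the hippocampus of 17 mice, 1 library per mouse, with no treatment listed. Dp16 mice (6 libraries), a model of Down syndrome, carry part of chromosome 16 in 1 extra copy, a part whose human counterpart lies on chromosome 21. Dp16_2xIFNRs mice (5 libraries) carry this duplication too, but with interferon receptor genes at their normal dosage. Wild-type C57BL/6J mice (WT) gave 6 libraries. Dp16 and WT held 3 females and 3 males each, Dp16_2xIFNRs held 3 females and 2 males, and all mice were 17.1 to 18.0 weeks old. The labels give no litter or breeding scheme, and the background strain is labelled for WT only. The extra segment is present in every cell, so the groups do not single out the cells in which a level differed. Of the libraries, 1 of each genotype stood apart in markers of the choroid plexus, the tissue that secretes cerebrospinal fluid: their mean log2 CPM was 1.36 in Dp16 replicate 6, 1.84 in Dp16_2xIFNRs replicate 5 and 1.21 in WT replicate 6, against 5.44 to 6.61 in the others.

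Cholesterol cannot cross from plasma into the brain in useful amounts, so brain cells make their own, mostly oligodendrocytes during myelination and mostly astrocytes in the adult. Acetoacetyl-CoA is condensed to HMG-CoA, reduced to mevalonate, phosphorylated and decarboxylated to isoprene units, joined to squalene, closed to lanosterol and trimmed to cholesterol. When sterols in the endoplasmic reticulum are low, SCAP carries SREBP to the Golgi for cleavage, and the released factor binds sterol regulatory elements next to NF-Y and Sp1 sites; when sterols are high, INSIG proteins hold SCAP back.

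The upstream stretches of 3 genes are shown because the first belongs to the enzyme whose Dp16 and WT levels did not overlap, the second to the master regulator, and the third to an enzyme whose fold change had the opposite sign. Each runs 5′ to 3′ on the gene's own strand and ends before the start of the gene in RefSeq and in GENCODE (RefSeq promoter table, build GRCm38.p6). The stretches are chr13:119690151-119690350 (plus strand) for Hmgcs1, chr15:82147019-82147180 (plus strand) for Srebf2 and chr3:89454341-89454540 (plus strand) for Pmvk. Capitals mark matches on either strand to TCACNCCAC (a form of the sterol regulatory element), CCAAT (NF-Y box) and GGGCGG (Sp1 box).

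Hmgcs1: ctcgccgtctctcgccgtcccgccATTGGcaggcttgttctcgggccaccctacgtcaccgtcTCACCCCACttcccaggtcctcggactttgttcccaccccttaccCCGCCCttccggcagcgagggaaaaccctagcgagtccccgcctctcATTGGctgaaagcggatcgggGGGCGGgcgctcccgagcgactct
Srebf2: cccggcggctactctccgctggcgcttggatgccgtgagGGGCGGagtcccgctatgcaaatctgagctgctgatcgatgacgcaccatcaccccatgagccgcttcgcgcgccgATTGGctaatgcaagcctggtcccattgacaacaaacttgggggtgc
Pmvk: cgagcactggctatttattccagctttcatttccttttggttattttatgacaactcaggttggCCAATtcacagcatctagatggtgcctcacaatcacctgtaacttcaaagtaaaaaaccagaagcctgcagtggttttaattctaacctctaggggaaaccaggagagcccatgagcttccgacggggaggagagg

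The Hmgcs1 stretch held 1 match to TCACNCCAC, 2 CCAAT boxes and 2 GGGCGG boxes. The Srebf2 stretch held 1 CCAAT box and 1 GGGCGG box, and the Pmvk stretch held 1 CCAAT box alone. The Srebf2 stretch has 162 bases and ends 88 bases before the RefSeq start, while the others have 200 bases and end at it. Further GGGCGG boxes of Srebf2 lay outside its stretch, at -79, -52, -34 and 20 bases from the RefSeq start. The counts of the stretches are therefore not comparable. Windows from 250 bases before to 50 bases after the start were in the table for 22 of the 26 genes; Sqle, Stard4, Fdft1 and Fdps had none. TCACNCCAC was found in 1 of the 22 genes (4.55%), Hmgcs1, where the match begins 137 bases before the start. It was found in 1.42% of the tested genes with a window and in 1.24% of all 32841 windows. Other forms of the sterol regulatory element were not searched, so a gene without this match may still hold one. CCAAT was found in 20 of the 22 genes (90.9%), against 42.3% of the tested genes with a window. GGGCGG was also found in 20 of the 22 (90.9%), against 63.8% of the tested genes with a window. Counted per window, CCAAT lay in 70.0% of the 30 windows of these genes and in 37.4% of all windows, and GGGCGG in 80.0% and 35.7%. No matches overlapped in the printed stretches, and a match is a description of the letters in the window only.

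Levels between genes were compared in RPKM, the deposited counts per kilobase and per M (mega) counts, averaged over all 17 mice. Hmgcs1, the cytosolic HMG-CoA synthase that feeds the mevalonate arm, had the highest level at 85.1 ± 9.95 RPKM (SD, n = 17). Msmo1, a sterol demethylating oxidase, followed at 47.4 ± 5.25 RPKM and Srebf2, the SREBP that drives cholesterol genes, at 43.5 ± 1.82 RPKM. The last 2 differed by less than the SD of Msmo1, but both were measured in the same mice, so that SD is not the error of their difference. Msmo1 lay below Srebf2 in WT replicate 2 (41.6 against 42.1 RPKM) and WT replicate 6 (43.2 against 44.2 RPKM), and above it in every other mouse. Insig1, the inducible retention protein of SCAP, averaged 25.2 RPKM and Sqle, squalene epoxidase, 23.5 RPKM. The lowest levels were those of Hsd17b7 (4.60 RPKM), Lss (4.62 RPKM) and Stard4 (6.03 RPKM), of which the first 2 differed by less than the SD of either. Here too the SD between mice is not the error of the difference. Levels between mice are given below in CPM, counts per M counts of the scaled library, where the lowest value of the 26 in any mouse was 10.3 CPM (Ebp).

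No gene of the 26 passed the test in Dp16 against WT, where 0.537% of all tested genes did (edgeR quasi-likelihood test, adjusted p under 0.05). At an unadjusted p under 0.05, 6 of the 26 were higher and 2 lower in Dp16, against 5.61% higher and 3.97% lower among all tested genes. Over 33 alternative settings, 2 to 9 were higher. With a series in the mouse identifiers as a covariate, whose meaning the labels do not give, 2 were higher and 1 lower. The median log2 fold change of the 26 was 0.07, against -0.006 over all tested genes, and 19 of the 26 lay above 0, against 48.1% of all tested genes. The median of the 26 varied between single mice, within genotype and sex, with an SD of 0.09. This SD is not the error of a difference between groups, and whether the median differs from 0 was not tested.

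**Figure D1:**
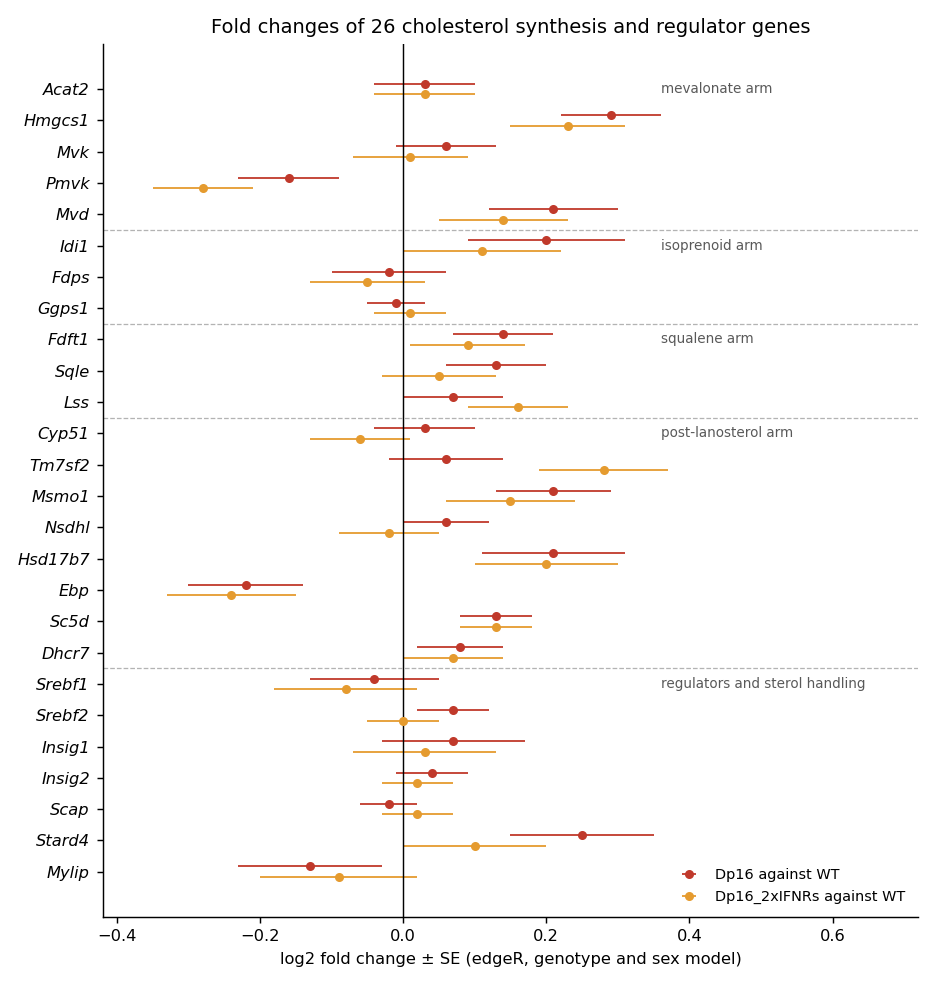
Log2 fold change with its SE (x axis) of each of the 26 genes (y axis, by arm) in Dp16 against WT (red) and Dp16_2xIFNRs against WT (orange), from 1 fit of all 17 libraries; both share the WT mice. Hmgcs1 lies to the right in both (0.29 and 0.23), and Pmvk (-0.16 and -0.28) and Ebp (-0.22 and -0.24) lie to the left in both.

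In the mevalonate arm, Hmgcs1 (chr13:119690379-119708260, plus strand) ranged from 304 over a median of 319 to 349 CPM in Dp16, against 233, 266 and 279 CPM in WT. All 6 Dp16 mice lay above all 6 WT mice. It was the only gene of the 26 whose Dp16 and WT values did not overlap, which held for 0.99% of all tested genes. This came to a log2 fold change of 0.29 ± 0.07 (SE), with an edgeR unadjusted p of 0.000876 and an adjusted p of 0.106. Over 33 alternative settings the log2 fold change stayed between 0.26 and 0.31, and the adjusted p fell under the threshold in 3 of them (DESeq2 0.0207, no low-count filter 0.0303, only the Dp16 and WT libraries 0.0164).

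Pmvk, phosphomevalonate kinase (chr3:89454541-89469013, plus strand), lay on the other side. It ranged from 23.3 over a median of 25.4 to 27.2 CPM in Dp16, against 24.8, 28.7 and 29.6 CPM in WT. Of the 6 WT mice, 5 lay above every Dp16 mouse, and WT replicate 2 lay within the Dp16 range. The log2 fold change was -0.16 ± 0.07, not past the test (edgeR adjusted p 0.484). Mvd, the decarboxylase that ends the arm, ranged from 15.2 over 17.6 to 20.1 CPM in Dp16, against 13.5, 14.7 and 19.9 CPM in WT, and 1 WT mouse reached the upper Dp16 values (log2 fold change 0.21 ± 0.09, edgeR adjusted p 0.472). Acat2, the thiolase that makes acetoacetyl-CoA, and Mvk, mevalonate kinase, had log2 fold changes of 0.03 and 0.06.

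The isoprenoid arm makes and joins the isoprene units. Idi1, the isomerase, had a log2 fold change of 0.20 ± 0.11 in Dp16, and its levels were widely spread, from 24.8 to 35.1 CPM in Dp16 against 22.8 to 28.2 CPM in WT. Fdps, which makes farnesyl diphosphate, and Ggps1, which makes geranylgeranyl diphosphate, stood at -0.02 and -0.01. In the squalene arm, all 3 log2 fold changes were above 0: 0.14 ± 0.07 for Fdft1 (squalene synthase), 0.13 ± 0.07 for Sqle and 0.07 ± 0.07 for Lss. Lss, lanosterol synthase, has its human counterpart on chromosome 21 but lies on mouse chromosome 10, outside the duplicated segment. It ranged from 20.1 over 21.5 to 23.2 CPM in Dp16, against 18.3, 20.8 and 22 CPM in WT, and the groups overlapped. None of the 26 genes lies on mouse chromosome 16.

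The post-lanosterol arm removes methyl groups and shifts double bonds. Msmo1 ranged from 91.1 over 106 to 110 CPM in Dp16, against 78.8, 90.9 and 96.5 CPM in WT. Only the lowest Dp16 mouse lay within the WT range. On the log2 scale the difference was 0.21 ± 0.08 (edgeR adjusted p 0.407). Hsd17b7, the 3-ketosteroid reductase, ranged from 18.8 over 25.2 to 29.2 CPM in Dp16 and from 19.3 over 21.1 to 23.2 CPM in WT (log2 fold change 0.21 ± 0.10, edgeR adjusted p 0.518). Adjusted for the identifier series, the log2 fold change was 0.13. The lowest mouse of all was a Dp16 mouse. Sc5d, the C5 desaturase, ranged from 81.9 over 86.7 to 91.8 CPM in Dp16 and from 71.6 over 78.5 to 88.7 CPM in WT (log2 fold change 0.13 ± 0.05, edgeR adjusted p 0.404). Female WT replicate 1 held the highest WT level.

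Ebp, the X-linked sterol isomerase, had the only negative value of this arm in Dp16. It ranged from 10.3 over 11.7 to 13.5 CPM in Dp16, against 12.1, 13.8 and 16 CPM in WT, and the groups overlapped. Its log2 value against WT was -0.22 ± 0.08 (edgeR adjusted p 0.433). Tm7sf2, a sterol C14 reductase, ranged from 11 over 13.5 to 15.0 CPM in Dp16, against 12, 12.2 and 14.9 CPM in WT (0.06 ± 0.08). Tm7sf2 shares exon bases on the same strand with Vps51, whose mean count was 1540 against 434 for Tm7sf2, so its counts are uncertain. Fdft1 shares exon bases with Ctsb on the opposite strand (mean counts 2510 and 16500), and Cyp51, Ggps1 and Srebf1 share them with Akap9, Arid4b and Rai1. The strand setting of the counting is not given in the sources used here, so it is not known whether reads of these pairs were kept apart. Cyp51, Nsdhl and Dhcr7, the demethylase, the decarboxylating dehydrogenase and the last reductase, had log2 fold changes of 0.03, 0.06 and 0.08.

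Among the regulators, Srebf2 ranged from 216 over a median of 227 to 242 CPM in Dp16, against 190, 222 and 231 CPM in WT. Srebf1, whose product mainly drives fatty acid genes, ranged from 48.7 over 53.4 to 66.9 CPM in Dp16, against 51.3, 56.6 and 69.8 CPM in WT. Insig1, itself an SREBP target, ranged from 52.8 over 72.7 to 84.2 CPM in Dp16, against 59.5, 68.3 and 71.0 CPM in WT. All 3 overlapped between the groups, and their log2 fold changes were 0.07 ± 0.05, -0.04 ± 0.09 and 0.07 ± 0.10 in the order given. Stard4, a cytosolic sterol carrier, ranged from 28.2 over 35.9 to 38.9 CPM in Dp16 and from 24.7 over 30.1 to 32.2 CPM in WT (log2 fold change 0.25 ± 0.10, edgeR adjusted p 0.405). The second INSIG, the escort protein and the ligase that marks lipoprotein receptors for degradation, Insig2, Scap and Mylip, stood at 0.04, -0.02 and -0.13.

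**Figure D2:**
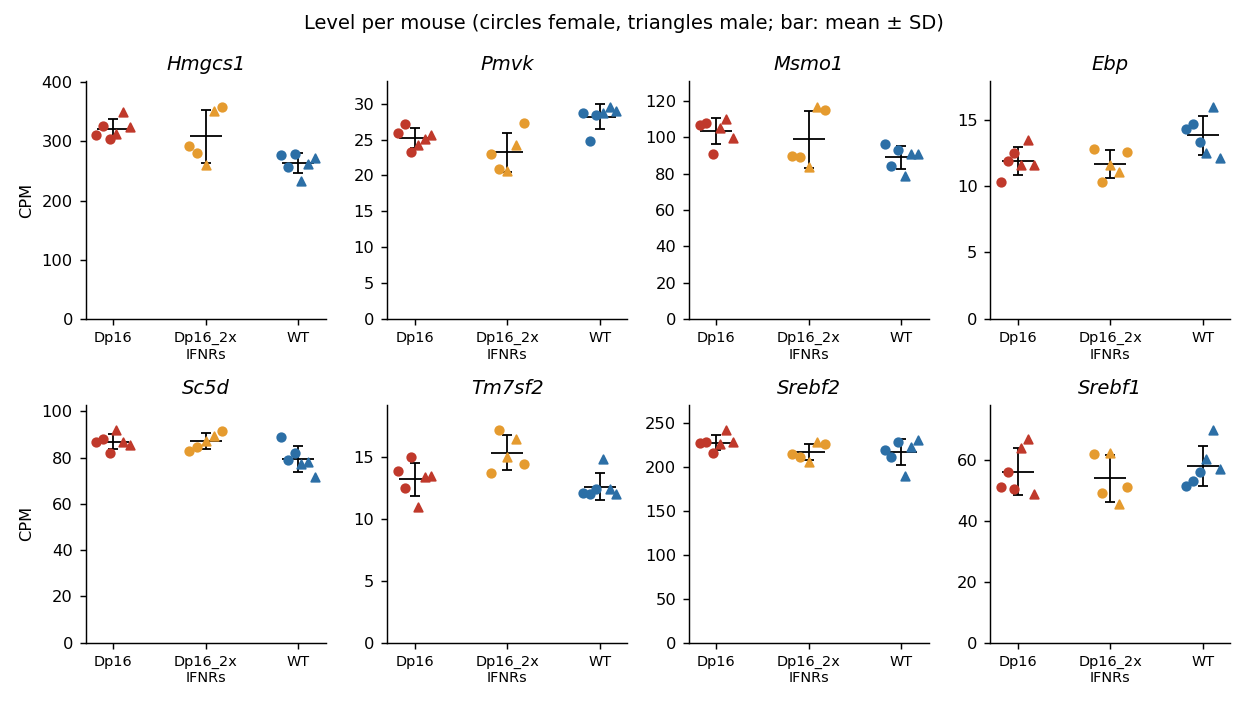
Level in CPM (y axis, from 0) of 8 of the 26 genes in each mouse, for Dp16, Dp16_2xIFNRs and WT (x axis); circles are females, triangles males, and bars give the mean ± SD. For Hmgcs1, all Dp16 mice lie above all WT mice, and the 5 Dp16_2xIFNRs mice split into 2 at 352 and 359 CPM and 3 between 260 and 292 CPM.

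With normal receptor dosage, Hmgcs1 and Pmvk had the same signs against WT; both comparisons use the same WT mice. None of the 26 passed the test in Dp16_2xIFNRs against WT, where 0.98% of all tested genes did (edgeR, adjusted p under 0.05). At an unadjusted p under 0.05, 4 were higher and 2 lower, against 8.44% and 8.6% of all tested genes. The median log2 fold change of the 26 was 0.03 (all tested genes 0.004), and 18 of the 26 lay above 0 (all tested genes 51.1%). No gene of the 26 separated the groups, which 2.17% of all tested genes did.

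Hmgcs1 had 292, 280, 260, 352 and 359 CPM in Dp16_2xIFNRs, against 233 to 279 CPM in WT (median 266). Of the 5, 4 lay above every WT mouse. The log2 fold change was 0.23 ± 0.08, not past the test (edgeR adjusted p 0.147). Pmvk had 23.0, 20.9, 20.6, 24.2 and 27.3 CPM, against 24.8 to 29.6 CPM in WT (median 28.7), so that 4 of the 5 lay below every WT mouse. The log2 fold change of Pmvk was -0.28 ± 0.07, with an edgeR adjusted p of 0.0786. That call depended on the setting: it was under the threshold in 6 of 33 alternatives, with adjusted p from 0.0154 to 0.268 over all of them. Among these, it was 0.0379 without WT replicate 2 and 0.0174 without Dp16_2xIFNRs replicate 5.

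Tm7sf2 had 13.7, 17.2, 15.0, 16.5 and 14.5 CPM in Dp16_2xIFNRs, against 12 to 14.9 CPM in WT (median 12.2). Of the 5, 3 lay above every WT mouse and all 5 lay above the 5 WT mice other than replicate 4. On the log2 scale the difference was 0.28 ± 0.09 (edgeR adjusted p 0.122, and 0.0470 without WT replicate 4), with the doubt from Vps51 given above. Ebp had 12.8, 10.3, 11.6, 11.1 and 12.6 CPM, against 12.1 to 16 CPM in WT (-0.24 ± 0.09, edgeR adjusted p 0.183). Sc5d had 82.8, 84.6, 87.1, 89.5 and 91.4 CPM, against 71.6 to 88.7 CPM in WT (0.13 ± 0.05, edgeR adjusted p 0.201). Lss had 19.8, 25.3, 22, 25.8 and 21.6 CPM, against 18.3 to 22 CPM in WT (0.16 ± 0.07, edgeR adjusted p 0.276). These 3 genes overlapped between the groups.

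The remaining genes of the named set overlapped too. Msmo1 had 89.5, 89.3, 83.4, 117 and 115 CPM in Dp16_2xIFNRs, against 78.8 to 96.5 CPM in WT, with 2 mice above the WT range and 3 within it (0.15 ± 0.09). Mvd had 14.5, 15.1, 17.3, 19.0 and 17.8 CPM (0.14 ± 0.09) and Hsd17b7 20.5, 21.1, 24.9, 28.6 and 25.5 CPM (0.20 ± 0.10). Stard4 had 28.6, 26.7, 27.6, 36.1 and 34.9 CPM (0.10 ± 0.10), against 24.7 to 32.2 CPM in WT. Replicates 4 and 5, the 2 mice highest in Hmgcs1 and Msmo1, were the ones above the WT range. Among the regulators, Srebf2 had 215, 211, 206, 228 and 226 CPM, Srebf1 61.9, 49.1, 62.4, 45.5 and 51.2 CPM, and Insig1 59.2, 57.3, 67.0, 73.9 and 79.6 CPM. Their log2 fold changes against WT were within 1 SE of 0: -0.00 ± 0.05, -0.08 ± 0.10 and 0.03 ± 0.10 in that order.

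The effect of receptor dosage on the duplication background was asked of Dp16_2xIFNRs against Dp16. None of the 26 passed the test, where 0.0158% of all tested genes did, and no gene separated the groups (0.616% of all tested genes). The median log2 fold change of the 26 was -0.04 (all tested genes -0.007), and 7 of the 26 lay above 0 (all tested genes 47.9%). At an unadjusted p under 0.05 there was 1 gene, Tm7sf2, at 0.22 ± 0.09 on the log2 scale (edgeR adjusted p 0.438). Among all tested genes, 6.99% were higher and 3.48% lower at that threshold. For Hmgcs1 the log2 difference between the duplication groups was -0.06 ± 0.08 and for Pmvk -0.12 ± 0.07, neither past the test (edgeR adjusted p 0.795 and 0.554).

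With all 11 duplication mice set against the 6 WT mice, none of the 26 passed the test, where 1.04% of all tested genes did. Of the 26, 6 were higher and 2 lower at an unadjusted p under 0.05, against 7.21% and 7.39% of all tested genes. The median log2 fold change of the 26 was 0.04 (all tested genes 0.000), and 19 of the 26 lay above 0 (all tested genes 50.1%). The 6 were Hmgcs1 (0.26 ± 0.06, edgeR adjusted p 0.0609), Sc5d (0.13 ± 0.04, 0.158), Msmo1 (0.18 ± 0.07, 0.243), Tm7sf2 (0.17 ± 0.07, 0.283), Hsd17b7 (0.20 ± 0.09, 0.290) and Mvd (0.18 ± 0.08, 0.303). The 2 were Pmvk (-0.22 ± 0.06, 0.0977) and Ebp (-0.23 ± 0.07, 0.152). Hmgcs1 was under the threshold in 8 of 32 alternatives and Pmvk in 5, DESeq2 among them for both (0.00975 and 0.0287). Each of the genes just named had its highest adjusted p with the slope of expression on gene length in the model (edgeR, Hmgcs1 0.158, Pmvk 0.342). The mean of this slope was 0.0086 in Dp16, 0.0043 in Dp16_2xIFNRs and -0.0122 in WT, with overlapping ranges. Its part in the fold changes was not tested. The adjusted p of Hmgcs1 was 0.0201 without Dp16_2xIFNRs replicate 3, and that of Pmvk was 0.0449 without WT replicate 2 and 0.0275 without Dp16_2xIFNRs replicate 5.

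**Figure D3:**
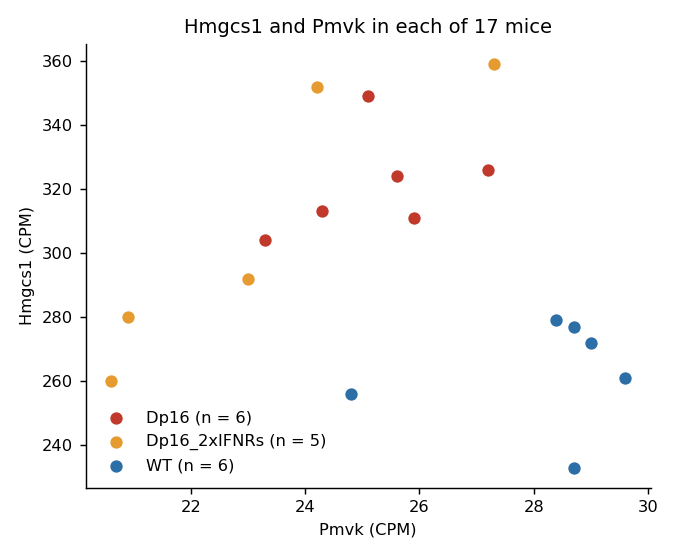
Hmgcs1 (y axis, CPM) against Pmvk (x axis, CPM) in each of the 17 mice, coloured by genotype. Of the 6 WT mice, 5 lie to the right of every other mouse, at 28.4 CPM of Pmvk or more, and WT replicate 2 lies at 24.8 CPM; all Dp16 mice lie above all WT mice, and the Dp16_2xIFNRs points run upward to the right.

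Hmgcs1 and Pmvk act close together in the same arm and were set side by side after their values were seen, so the following is a description with no test. The log2 ratio of Hmgcs1 to Pmvk counts was 3.67 ± 0.08 in Dp16 (3.58 to 3.80), 3.73 ± 0.08 in Dp16_2xIFNRs (3.66 to 3.86) and 3.22 ± 0.12 in WT (3.02 to 3.37) (SD, n = 6, 5 and 6). All 11 duplication mice lay above all 6 WT mice. Hmgcs1 was chosen as higher and Pmvk as lower in the duplication mice, so the choice itself favours a separation of their ratio. How often other pairs of genes chosen in this way separate the groups was not counted. The separation is therefore no evidence of a genotype difference beyond the values of each gene given above.

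Females were also set against males within genotype. None of the 26 passed the test in females against males, where 0.0685% of all tested genes did, and 1 was past an unadjusted p of 0.05 (3.26% of all tested genes). That gene was Mvd, at -0.18 ± 0.08 on the log2 scale (edgeR adjusted p 1). The X-linked genes Ebp and Nsdhl stood at 0.01 ± 0.07 and 0.05 ± 0.05. No gene of the 26 had a genotype by sex interaction that passed the test or an unadjusted p under 0.05, for Dp16 or for Dp16_2xIFNRs, and 0% of all tested genes passed it in either. At the unadjusted limit, 2.98% of all tested genes passed for Dp16 and 2.73% for Dp16_2xIFNRs.

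Mice of the same genotype and sex also differed in these genes. To describe this, the mean of each genotype-by-sex cell was taken off the log2 CPM of every gene, and the remaining deviations were correlated with those of Hmgcs1 over the 17 mice. Of all 18982 other tested genes, the one with the highest Pearson r was Fdft1 (r = 0.952, Spearman rho = 0.919), and the next was Msmo1 (r = 0.941, rho = 0.885). Nsdhl ranked 6th (r = 0.86) and Idi1 8th (r = 0.852). Of the 25 other genes of the pathway, 12 were among the highest 5% of r, and their median r was 0.564, against 0.00773 over all genes. Positive values were found for 22 of the 25, against 50.7% of all genes.

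The test of each r was an exact permutation within the cells, two-sided, over 15552 orders, adjusted over all 18982 genes. At an unadjusted p under 0.05, 14 of the 25 were positive and 0 negative, against 4.93% and 4.35% of all genes. None passed after adjustment, and none of all genes did, with a smallest adjusted p of 0.244. The smallest p that 15552 orders can give is too large for a gene alone at that limit to pass over 18982 genes. Many genes would have to share it, so the adjusted result cannot decide whether a given r differs from 0. Srebf2 had the smallest p that the permutations can give (r = 0.802, rho = 0.9, exact permutation p = 6.43e-05, adjusted p 0.244), and Fdft1 had an exact permutation p of 0.000322 (adjusted 0.321).

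**Figure D4:**
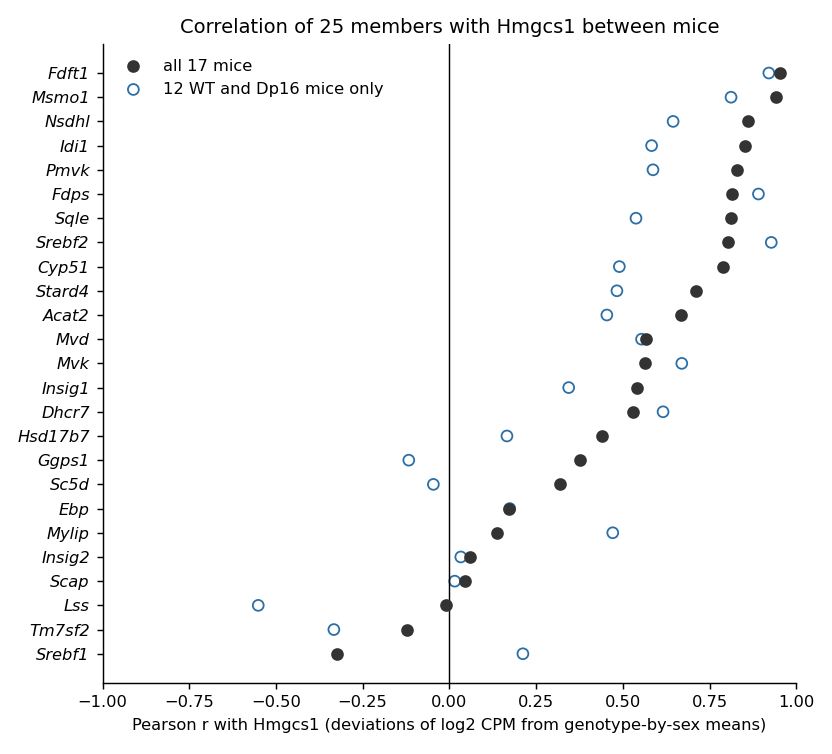
Pearson r (x axis) of each of the 25 other genes (y axis) with Hmgcs1, over all 17 mice (filled) and over the 12 WT and Dp16 mice (open). Fdft1, Msmo1, Fdps and Srebf2 stay at 0.8 or above in both, and Lss and Tm7sf2 are below 0 in both.

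High values came from each enzyme arm, with r = 0.829 for Pmvk, 0.814 for Fdps, 0.812 for Sqle and 0.789 for Cyp51, and Stard4 stood at 0.712. Pmvk, which had the opposite fold change from Hmgcs1 between genotypes, had a positive r with it between mice of 1 genotype and sex. Lss (-0.00891), Tm7sf2 (-0.122) and Srebf1 (-0.323) had r below 0, and Scap (0.0457) and Insig2 (0.0587) were near 0.

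In the deviations of Hmgcs1, Dp16_2xIFNRs replicates 4 and 5 (0.22 each) lay farthest from the median, and replicate 3 (-0.22) came close behind. Replicates 4 and 5 are the high pair of the plot of levels per mouse. Without them the median r of the 25 was 0.481 (all genes 0.00944), with 0.905 for Fdft1, 0.922 for Srebf2, 0.603 for Pmvk and 0.525 for Idi1. Over the 12 WT and Dp16 mice alone, chosen after seeing the data, the median was 0.483 (all genes 0.00972), with 0.921 for Fdft1, 0.812 for Msmo1 and 0.928 for Srebf2. Sc5d and Ggps1, at 0.32 and 0.378 over all mice, were at -0.0661 and -0.0449 without the high pair. Leaving out the pair also leaves Dp16_2xIFNRs replicate 3 alone in its genotype-by-sex cell, so its deviation drops out too. The change therefore cannot be laid to the high pair alone. Over all mice, replicates 3 and 4 are the only males of their genotype, so their deviations mirror each other. The r of Srebf1 changed sign too, from -0.323 over all mice to 0.27 without the high pair. Over the WT and Dp16 mice it was 0.212. Lss was at -0.505 without the high pair and Tm7sf2 at -0.375.

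**Figure D5:**
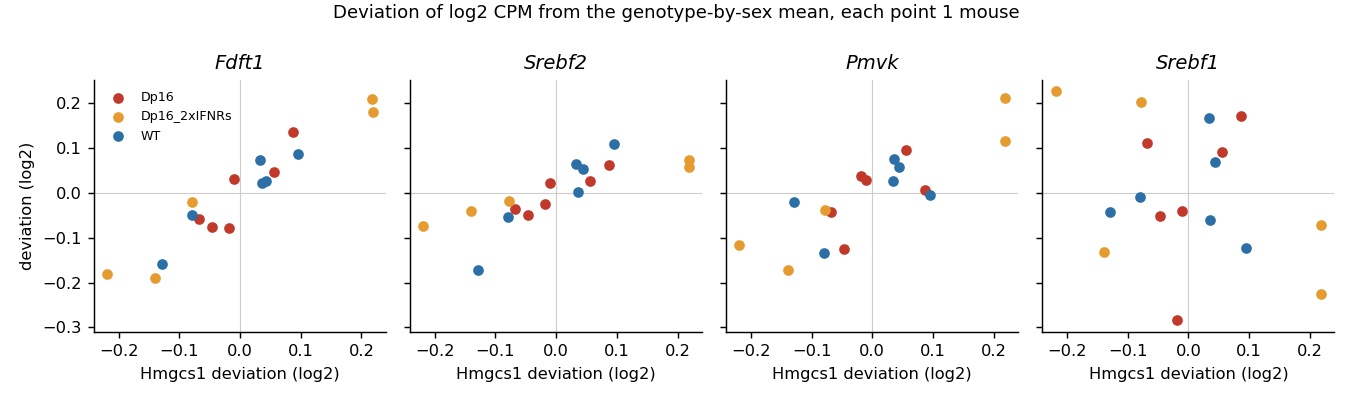
Deviation of log2 CPM from the genotype-by-sex mean of Fdft1, Srebf2, Pmvk and Srebf1 (y axes) against that of Hmgcs1 (x axes); each point is 1 mouse, coloured by genotype. Fdft1, Srebf2 and Pmvk run with Hmgcs1 (r = 0.952, 0.802 and 0.829), and Srebf1 has r = -0.323, which turns to 0.27 without the 2 Dp16_2xIFNRs mice farthest to the right.

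The deviations of Hmgcs1 also had r = 0.513 with the mean level of neuron markers, 0.448 with astrocyte markers, -0.45 with choroid plexus markers, -0.0611 with myelin markers and -0.167 with the slope of expression on gene length. The part of the marker levels in the correlations was not tested; with the length slope taken out, the median r was 0.553. In bulk tissue, more cells of a type and more RNA per cell cannot be told apart.

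The libraries held the transcripts of hippocampal tissue, with a mean log2 CPM of 6.60 to 7.11 over 7 hippocampal neuron markers. Of 14 myelinating oligodendrocyte markers, 0 passed the test in any genotype comparison, and their mean log2 CPM was 6.88 to 7.39 in Dp16, 6.86 to 7.21 in Dp16_2xIFNRs and 6.82 to 7.43 in WT. The 3 myelin markers with the smallest p in all duplication mice against WT were Mal (log2 fold change 0.35, edgeR adjusted p 0.102), Mbp (-0.19, 0.459) and Mobp (0.18, 0.512). Of 11 astrocyte markers, 2 were lower in all duplication mice against WT, where 1.04% of all tested genes were called. These were Fgfr3 (-0.31 ± 0.05, edgeR adjusted p 0.00126) and Atp1b2 (-0.20 ± 0.04, 0.0191). The call of Atp1b2 was lost without WT replicate 3 or 5 and with the length slope in the model (edgeR adjusted p 0.0794). The mean log2 CPM of the list was 7.94 to 8.12 in Dp16, 7.89 to 8.10 in Dp16_2xIFNRs and 7.97 to 8.14 in WT. The astrocyte marker with the next smallest p was Gfap (0.20, edgeR adjusted p 0.0996). Of 12 choroid plexus markers, 0 passed, and the 3 with the smallest p were Cldn2 (-0.46, edgeR adjusted p 0.794), Kl (-0.30, 0.820) and Ttr (-0.52, 0.825). Without the 3 libraries low in these markers, none of the 26 passed in Dp16 against WT and Pmvk alone did in Dp16_2xIFNRs against WT (edgeR adjusted p 0.0395). Neuron (10), microglia (11) and endothelial (7) markers had 0 calls. In the comparison of all duplication mice with WT, the smallest p among neuron markers were those of Gad2 (0.11, edgeR adjusted p 0.538), Map2 (0.11, 0.546) and Tubb3 (-0.06, 0.645). Microglia markers included P2ry12 (-0.22, edgeR adjusted p 0.220) and Ctss (0.18, 0.290), and the smallest p among endothelial markers were those of Cldn5 (-0.16, 0.689), Slco1a4 (-0.05, 0.797) and Pecam1 (0.02, 0.943). Of 7 hippocampal neuron markers 1, Zbtb20, was higher in Dp16_2xIFNRs than in WT, where 0.98% of all tested genes were called. Its log2 fold change was 0.53 (edgeR adjusted p 0.0346, and under the threshold in 18 of 33 alternatives). That call was lost without WT replicate 1, 3, 5 or 6 or without Dp16_2xIFNRs replicate 2, 3, 4 or 5. In all duplication mice against WT, Zbtb20 stood at 0.36 (edgeR adjusted p 0.0996), Wfs1 at 0.10 (0.551) and Fibcd1 at 0.18 (0.556).

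The neighbouring genes of the pathway were set beside all tested genes. Of all tested genes, 0.537% were called in Dp16, 0.98% in Dp16_2xIFNRs and 1.04% in all duplication mice, each against WT. Of 15 genes of SREBP cleavage and sterol-regulated degradation, 1 was higher in the duplication mice: Sec24d, a coat protein of the vesicles that leave the endoplasmic reticulum, with 0.28 in Dp16 (edgeR adjusted p 0.0160), 0.29 in Dp16_2xIFNRs (0.0130) and 0.28 in all duplication mice (0.00301). The call in Dp16 was lost without WT replicate 5, Dp16 replicate 4 or Dp16 replicate 6, and without the 3 libraries low in choroid plexus markers. It was also lost without a low-count filter and when the model held the length slope or the identifier series (edgeR adjusted p 0.116 for that series). The call in Dp16_2xIFNRs was lost without its replicate 3 or 4 and with only the 2 groups compared (edgeR adjusted p 0.0669). Next in this list by p were Sec23a (0.09 in all duplication mice against WT, edgeR adjusted p 0.380) and Sar1b (-0.08, 0.526), which also serve that vesicle coat. Of 22 genes of cholesterol transport, storage and turnover, 1 was called: Lcat, which esterifies the cholesterol of lipoproteins, with 0.36 in Dp16_2xIFNRs (edgeR adjusted p 0.00708) and 0.30 in all duplication mice (0.00669), against 0.24 in Dp16 (0.118). Next by p in all duplication mice against WT were the lipoprotein components Clu (-0.23, edgeR adjusted p 0.0737) and Apoe (-0.20, 0.193). Of 17 fatty acid synthesis targets of SREBP-1 and 13 genes of the isoprenoid branch, 0 passed in any of these comparisons, and their medians lay between -0.05 and 0.04. The smallest p of the fatty acid list in all duplication mice against WT were those of Elovl5 (0.09, edgeR adjusted p 0.435), Thrsp (0.15, 0.438) and Fads1 (0.05, 0.627). In the isoprenoid branch they were those of Rce1 (-0.17, edgeR adjusted p 0.208), Fntb (-0.13, 0.219) and Icmt (-0.18, 0.288), which act in protein prenylation.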

How the data were processed

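Per the labels' protocols, poly-A RNA was made into strand-specific libraries and sequenced as paired reads of 150 bases. Per the submitters' processing notes, the reads were handled with HISAT2 (2.1.0), HTSeq (0.6.1), SAMtools (1.5) and FastQC (0.11.5) on build GRCm38. Raw counts and RPKM for each gene were deposited by the authors; the strand setting of the counting is not given in the sources used here. Of the 26 genes, 10 share exon bases with another gene, 3 of them on the same strand (GENCODE release 21).

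Counts were fitted in R 4.3.3 with edgeR 4.0.16 (TMM, filterByExpr with a minimum count of 10, quasi-likelihood model with genotype and sex, 17 libraries, 13 residual degrees of freedom), with Benjamini-Hochberg adjustment over 18983 genes and calls at 0.05. Libraries held 30.4 to 33.1 M counts; CPM use these totals scaled by TMM, and log2 CPM a prior count of 2. The biological coefficient of variation was 14.1%. Scripts were tested on simulated data. The genes and the 11 other lists were chosen with earlier results of these data known. Levels per mouse are given for genes with an unadjusted p under 0.05 in any genotype comparison and for Srebf1, Srebf2, Insig1 and Lss; from each other list, the 3 genes with the smallest p in all duplication mice against WT are named, except 1 that is not reported here. Alternatives used DESeq2 1.42.0, limma 3.58.1, other filters, covariates (age, identifier series, choroid plexus and myelin levels, length slope) and left-out libraries.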

Additional observations from a re-analysis of the deposited data

Results flagged for a closer look

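Each of the 26 genes was checked in each group of mice for a mouse that stood apart from the rest by Dixon's criterion, which chance meets in about 1 in 20 groups; 5 of 78 groups met it, all in WT. Pmvk was at 24.8 CPM in WT replicate 2, against 28.4 to 29.6 CPM in the other WT mice. Mvd was at 19.9 CPM in WT replicate 5, against 13.5 to 15.6 CPM in the others. WT replicate 4 stood apart in 3 genes: Fdft1 at 64.7 CPM against 74.6 to 78.7 CPM, Sqle at 52.9 CPM against 62.0 to 66.5 CPM, and Tm7sf2 at 14.9 CPM against 12 to 12.4 CPM.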

How the results depend on the processing

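The median log2 fold change of the 26 genes ranged over the alternatives from 0.04 to 0.08 in Dp16 against WT, 0 to 0.07 in Dp16_2xIFNRs against WT, -0.08 to 0 in Dp16_2xIFNRs against Dp16 and 0.03 to 0.07 in all duplication mice against WT. Its SD between single mice (0.09) is not the error of a difference between groups. The medians were not tested against 0, and the ranges do not show that they differ from 0. The count of called genes was 0 in every comparison and moved as follows; the cause was not tested. In Dp16 against WT it was 1 (Hmgcs1) with DESeq2, without a low-count filter and with only the 2 groups compared. In Dp16_2xIFNRs against WT it was 1 (Pmvk) with DESeq2, with the choroid plexus level as a covariate, with limma-trend on log2(RPKM + 0.1) and, as an alternative added after seeing the data, without the 3 libraries low in choroid plexus markers. In all duplication mice against WT it was 2 (Hmgcs1 and Pmvk) with DESeq2 and with limma-trend on log2(RPKM + 0.1) or log2(RPKM + 1), and 1 (Hmgcs1) without a filter, with a filter of 1 CPM in 5 libraries, without sex and with the choroid plexus covariate. Leaving out 1 library at a time gave 0 in Dp16 against WT, 0 to 1 in Dp16_2xIFNRs against WT (Pmvk without WT replicate 2, adjusted p 0.0379, or without Dp16_2xIFNRs replicate 5, 0.0174; Tm7sf2 without WT replicate 4) and 0 to 1 in all duplication mice against WT (Pmvk without WT replicate 2, 0.0449, or without Dp16_2xIFNRs replicate 5, 0.0275; Hmgcs1 without Dp16_2xIFNRs replicate 3, 0.0201). Hmgcs1 in Dp16 had its highest adjusted p, 0.249, with the length slope in the model. The count was 0 throughout in Dp16_2xIFNRs against Dp16 and in females against males. Single genes were followed only where they had an unadjusted p under 0.05 in a comparison or were called in another list; none of these 1110 values changed sign, and 1038 kept their side of the threshold. With the replicate number as a block, 0 of the 26 were called in each genotype comparison, and 98 of all genes in Dp16 against WT in place of 102. The labels do not say whether the numbers pair the mice. Between genotypes, the mean r of deviations was 0.0772 over 16 same-numbered pairs and -0.0141 over 80 others. Only genotype means were taken off for this, and the numbers follow sex in WT and Dp16, so these values cannot decide it. The median r with Hmgcs1 was 0.458 to 0.605 when leaving out 1 library at a time, and the median Spearman rho was 0.559. Over all genes, DESeq2 called 217 in place of 102 in Dp16 against WT, 633 in place of 186 in Dp16_2xIFNRs against WT, 6 in place of 3 in Dp16_2xIFNRs against Dp16, 502 in place of 197 in all duplication mice against WT and 20 in place of 13 in females against males. Without a filter the counts were 416, 14 and 321 in Dp16_2xIFNRs against WT, Dp16_2xIFNRs against Dp16 and all duplication mice against WT, and with the length slope the last was 127. Dp16_2xIFNRs against WT also had 324 with the choroid plexus covariate, 114 with only the 2 groups, 433 without WT replicate 4, and 517, 119 and 101 without its replicates 1, 2 and 3. No alternatives were run for the interaction with sex. A value that missed the threshold with 5 or 6 mice per group is not shown to be equal between the groups.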
